A study of Homo sapiens with 6 samples.

Results

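The 51 genes described here encode the proteins that license replication origins, fire them, copy DNA at the fork and supply it with deoxynucleotides, together with the E2F transcription factors that switch such genes on. They were taken from a list by gene symbol. All 51 were found among the 32434 gene IDs of the deposited table through GENCODE 29, and all 51 passed the filter, a mean of 1 FPKM or more (fragments per kilobase of exon, scaled to library depth), so none is missing from the counts below. The table holds RNA sequencing of SK-N-BE(2) cells, an established human neuroblastoma line with amplified MYCN. The shMYT1 group (3 libraries) carried a short hairpin RNA against MYT1, a zinc-finger factor found in developing neurons, and the shNC group (3 libraries) is labelled control. The protocol in the labels describes lentiviral infection for 24 h and puromycin for 48 h as a knockdown, while the genotype field says knockout. Values are described here as a knockdown. Whether the cells were a pool or 1 clone, how many hairpins were used, and whether the replicates were separate cultures is not stated. The p-values therefore speak of the spread among these 6 libraries, which may be technical.

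Before S phase, the origin recognition complex, CDC6 and CDT1 load the ring of MCM2 to MCM7 onto DNA. The CDC7-DBF4 kinase, MCM10, CDC45 and GINS then turn the ring into a moving helicase, and polymerases alpha, delta and epsilon copy both strands behind it. Most of these genes are transcribed in G1 and S phase when E2F factors are released from pocket proteins, so in a growing culture their RNA follows both the share of cells in that part of the cycle and the activity of E2F. In total RNA of a whole culture, fewer cells in S phase and less of these transcripts per cell cannot be told apart.

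Recovered fragments numbered 18.16 to 20.3 M in each shMYT1 library and 21.08 to 21.68 M in each shNC library. MYT1 (ENSG00000196132, hg38 chromosome 20, 64102394 to 64242253, plus strand) was measured at 4.198, 4.13 and 4.36 FPKM in the shMYT1 libraries, against 5.73, 5.12 and 5.18 FPKM in the shNC libraries (log2 fold change -0.28, adjusted p = 0.0102, limma). The groups did not overlap, with p = 0.1 in a two-sided exact permutation test, the lowest value possible with 3 libraries against 3. Of 14106 genes tested with limma, 24.2% passed at an adjusted p under 0.05, 11.9% higher and 12.3% lower in shMYT1 cells. Of the genes called, 49.2% were higher, and 36.5% when the libraries were rescaled to the same FPKM total. Of 10 neuroblastoma markers none was at 0, and MYCN, PHOX2A and HAND2 stood above 300 FPKM in every library. Of the 10, 4 were higher and 3 lower, with MYCN at 1551, 1530 and 1592 FPKM in shMYT1 libraries, against 1891, 1861 and 1923 FPKM in shNC libraries. DBH stood at 9.70 to 10.96 FPKM in shMYT1 and 5.05 to 6.11 FPKM in shNC libraries. Markers of fibroblasts and smooth muscle (12 genes) summed to 122 to 125 FPKM in shMYT1 and 167 to 171 FPKM in shNC libraries. Of this list 8 genes were tested, 4 of them higher and 3 lower. No marker of that list was at 0 in every library, and LUM alone stood at 52.4 to 58.1 FPKM in shMYT1 and 93.7 to 102 FPKM in shNC libraries. Their part in the results was not tested. Schwann cell, immune and epithelial markers summed to at most 3.52, 0.192 and 2.60 FPKM in any library. SOX10, CDH19, CD3E and LYZ were not found by symbol among the gene IDs, so they are not in these sums.

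More of the replication genes were lower than higher in shMYT1 cells. Of the 51, 18 were lower and 4 higher at an adjusted p under 0.05 over all genes (35.3% and 7.84%), against 12.3% and 11.9% of all genes tested. Changes were small, with an absolute log2 fold change of 0.098 to 0.43 among the 22. Each fold change is a difference of means of log2(FPKM + 1), shMYT1 minus shNC. Over the 51 genes the median was -0.075 and 44 values were negative, against a median of -0.005 and 7201 negative values among the 14106 genes. The groups did not overlap for 32 of the 51, against 42.3% of all genes. Of these 32, 25 were lower in every shMYT1 library and 7 higher, against 21.8% and 20.5% of all genes. These genes are well expressed, from 6.02 FPKM (GINS3) to 177 FPKM (PCNA), and 50 of 51 stood above the median gene tested. With the filter raised to 5 FPKM, which leaves 7870 genes and all 51, 17.0% were lower and 16.2% higher. There 19 of the 51 were lower and 5 higher. Among protein-coding genes only, 18.5% of 11176 genes were lower and 17.6% higher, with the same counts of the 51. The main counts of the groups and lists below are set beside the shares of all 14106 genes, which are smaller than these. Summed over the 51, the level was 1588, 1610 and 1612 FPKM in shMYT1 libraries and 1699, 1686 and 1735 FPKM in shNC libraries, a difference of -6.06%.

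**Figure D1:**
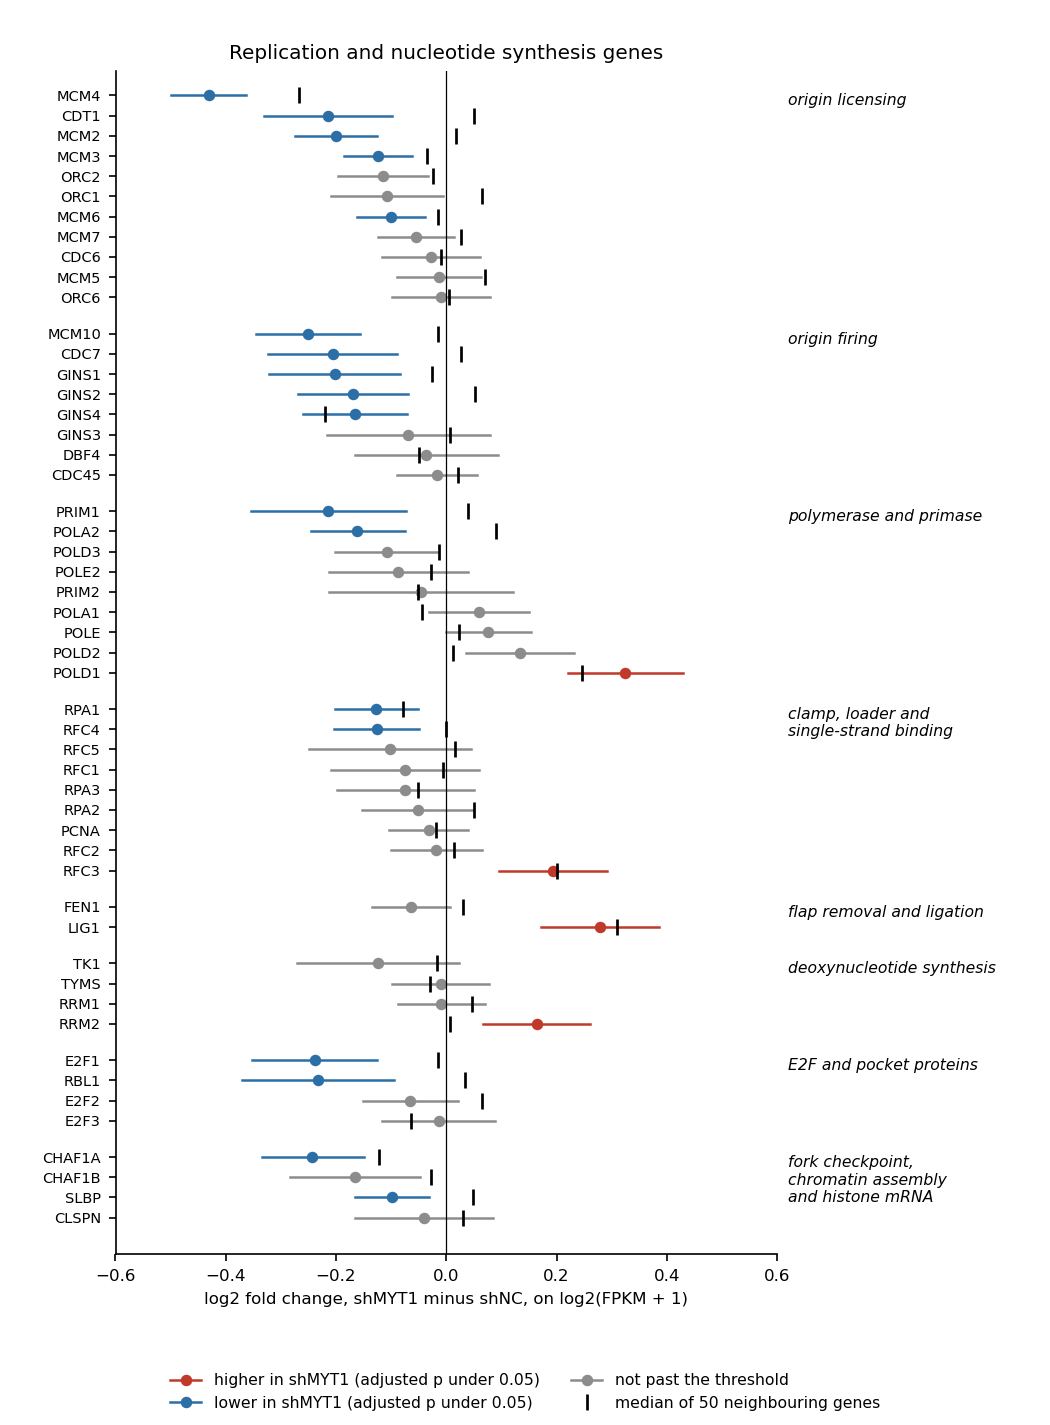
Log2 fold change (shMYT1 minus shNC, on log2(FPKM + 1)) of the 51 genes, grouped by role, with the 95% interval from limma over 3 libraries in each group. Black ticks give the median fold change of the 50 nearest tested genes on the chromosome. All 19 genes of origin licensing and firing lie left of 0, while POLD1, LIG1 and RFC3, all higher, lie close to the ticks of their neighbourhoods.

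Libraries were then left out 1 at a time, here and for each gene below. The count of lower genes changed with every one. It was 4 without shMYT1 replicate 1, 10 without shMYT1 replicate 2, 11 without shMYT1 replicate 3, 9 without shNC replicate 1 or replicate 3 and 7 without shNC replicate 2. The share of all genes called lower lay between 7.17% and 10.3% in these fits, which have fewer samples. Without shMYT1 replicate 1, 7.84% of the 51 genes and 7.87% of all genes were lower. The higher count was 2 without shMYT1 replicate 1 or 2, or shNC replicate 2. Of all genes 7.71%, 8.88% and 7.26% were higher in those fits. The median over the 51 genes stayed between -0.097 and -0.075 in these 6 fits. With no filter on low values, where 32434 IDs were tested and 4.05% were called lower, 10 of the 51 were lower. MCM2, MCM4, MCM10 and CHAF1A were lower in each alternative in which they were fitted, with MCM4 not fitted on recovered fragments.

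Some of the 51 genes lie among neighbours that differed between the groups in the same direction, so each was set beside the median fold change of the 50 nearest tested genes. For 45 of the 51 genes that median lay between -0.078 and 0.091. The other 6 were all called: POLD1 and LIG1 on the long arm of chromosome 19, RFC3 on chromosome 13, MCM4 and GINS4 on chromosome 8, and CHAF1A on the short arm of chromosome 19. With the running median of the neighbours subtracted, 17 of the 51 were lower and 1, RRM2, was higher, against 10.05% and 10.3% of 14011 genes. POLD1, LIG1, RFC3, GINS4, MCM3, MCM6 and RPA1 lost their calls there, and ORC1, MCM7 and FEN1 gained one. The part of the neighbourhood in these results was not tested beyond this subtraction.

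**Figure D2:**
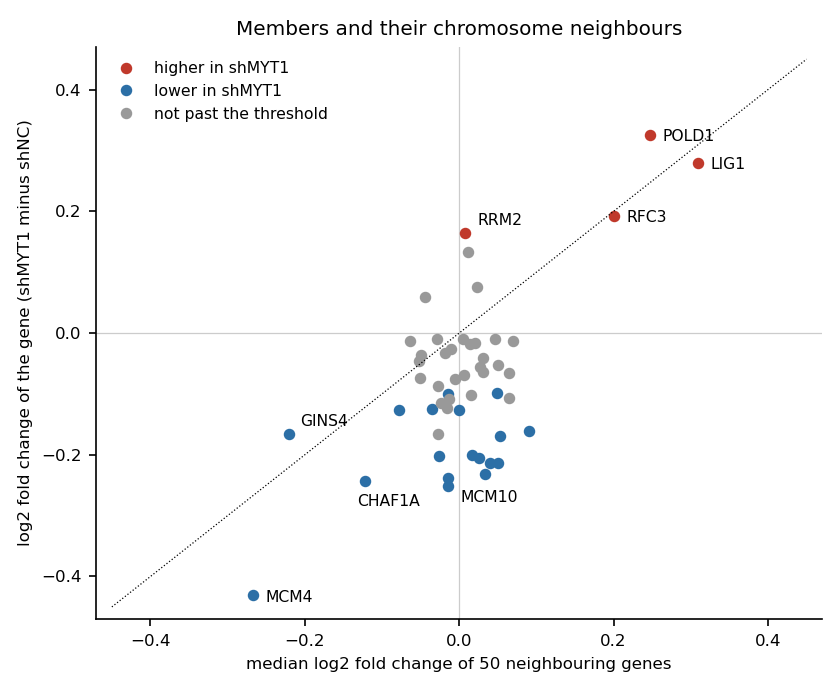
Log2 fold change of each of the 51 genes (vertical axis) against the median log2 fold change of its 50 nearest tested genes (horizontal axis), both shMYT1 minus shNC on log2(FPKM + 1). The dotted line marks equal values. RFC3 lies on that line, POLD1, LIG1 and GINS4 near it, and MCM4 below it. The other lower genes except CHAF1A sit beside neighbourhoods between -0.078 (RPA1) and 0.091 (POLA2).

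Among the 4 regulators E2F1 and RBL1 were lower and none was higher, against 12.3% and 11.9% of all genes. With 1 library left out 0 to 2 of the 4 were lower, against 7.17% to 10.3% of all genes. E2F1, the activator E2F whose own gene E2F factors also regulate (ENSG00000101412, hg38 chromosome 20, 33675683 to 33686404, minus strand), was measured at 66.1, 66.4 and 68.5 FPKM in the shMYT1 libraries, against 82.0, 73.5 and 82.5 FPKM in the shNC libraries. Every shMYT1 library lay below every shNC library, and shNC replicate 2 was the lowest of its group (-15.6% in the means, log2 fold change -0.24, SE 0.048, adjusted p = 0.0136, limma). RBL1, which encodes the pocket protein p107 that binds repressor E2Fs, stood at 5.98, 5.95 and 5.75 FPKM in the shMYT1 libraries, against 7.38, 7.505 and 6.45 FPKM in the shNC libraries (log2 fold change -0.23, SE 0.058, adjusted p = 0.0293). The groups did not overlap here either. E2F2 averaged 17.6 FPKM in shMYT1 cells and 18.5 FPKM in shNC cells and E2F3 18.9 FPKM in shMYT1 cells and 19.1 FPKM in shNC cells, both activator E2Fs, with fold changes of -0.065 (95% interval -0.15 to 0.022, adjusted p = 0.248) and -0.013 (95% interval -0.12 to 0.089, adjusted p = 0.855). The E2F1 call was lost without shMYT1 replicate 1 (adjusted p = 0.0505), and the RBL1 call without shMYT1 replicate 1, 2 or 3, or shNC replicate 1 or 2 (adjusted p 0.0676 to 0.0941). RBL1 shares exon bases with an antisense gene, and no strand setting is stated.

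E2F factors bind short GC-rich letters near transcription starts, and 4 such stretches are shown because their genes were among those lower in shMYT1 cells and hold the letters upstream of a RefSeq start. RefSeq windows of 300 bases (250 before to 50 after a start, GRCh38.p14) were at hand for 45 of the 51 genes. These 45 were searched on both strands for TTTGGCGC and TTTCGCGC, which can overlap each other on opposite strands. Capitals mark the matches, and each line runs 5′ to 3′ on the gene's strand.
E2F1 (chr20:33686387-33686416, minus strand): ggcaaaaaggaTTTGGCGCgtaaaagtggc
RBL1 (chr20:37095998-37096057, minus strand): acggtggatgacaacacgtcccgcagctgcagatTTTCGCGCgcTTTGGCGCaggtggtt
POLA2 (chr11:65261898-65261927, plus strand): ttggctcccggTTTCGCGCatgcgtgcact
MCM6 (chr2:135876522-135876595, minus strand): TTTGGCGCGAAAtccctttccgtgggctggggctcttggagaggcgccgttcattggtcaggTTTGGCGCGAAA

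The E2F1 match lies 20 to 13 bases before the RefSeq start and the 2 RBL1 matches within 26 to 9 bases before theirs. By GENCODE 29, which starts these genes farther upstream, the E2F1 stretch lies partly and the POLA2 stretch wholly within the gene. In MCM6 the same 12 letters stand at both ends of the stretch, and each holds both motifs, 1 on each strand. One or both motifs were found for 13 of the 45 genes (28.9%), against 2.52% of 9259 tested genes with a window and 1.40% of all 27305 genes in the table. Of the 16 lower genes with a window 7 held a match (E2F1, RBL1, GINS1, MCM2, MCM3, MCM6 and POLA2), as did 6 of 25 that did not pass (CDC6, E2F2, MCM7, POLA1, POLE and POLE2) and 0 of 4 higher ones. CCAAT, the letters bound by NF-Y, was found for 26 of the 45 (57.8%), against 43.5% of the 9259. TTTGAA, the letters of the cell cycle homology region, was found for 3 (6.67%), against 13.0%. These are counts of letters in fixed windows and not of bound sites. MCM4, MCM5, GINS4, POLD3, RPA2 and RPA3 are without a window.

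Origin licensing genes pointed one way, with 5 of 11 lower and 0 higher, against 12.3% and 11.9% of all genes. All 11 fold changes were negative, against 7201 of 14106 among all genes. Those of ORC6, MCM5 and CDC6 were close to 0, at -0.009, -0.013 and -0.027. With 1 library left out 2 to 4 were lower, against 7.17% to 10.3% of all genes. On rescaling to the same FPKM total 8 were lower, against 16.1% of all genes. MCM4, a subunit of the replicative helicase (ENSG00000104738, hg38 chromosome 8, 47960185 to 47978160, plus strand), had the largest change of the 51. It was measured at 47.8, 48.4 and 47.0 FPKM in the shMYT1 libraries, against 62.8, 65.3 and 66.0 FPKM in the shNC libraries. The libraries of each group lay close together and far from the other group (-26.2% in the means, log2 fold change -0.43, SE 0.029, adjusted p = 0.000270, limma). Its neighbours on chromosome 8 had a median of -0.27, and with that running median subtracted MCM4 remained lower, at -0.17 (adjusted p = 0.0106). MCM4 alone accounted for 16.4% of the fall in the summed level of the 51 genes.

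MCM2, another helicase subunit (ENSG00000073111, hg38 chromosome 3, 127598223 to 127622436, plus strand), was measured at 62.4, 62.0 and 64.4 FPKM in the shMYT1 libraries, against 72.5, 70.2 and 74.6 FPKM in the shNC libraries (-13.1%, log2 fold change -0.20, SE 0.031, adjusted p = 0.00568). The highest shMYT1 library lay well below the lowest shNC library. For MCM3 the values were 104, 106 and 107 FPKM in the shMYT1 libraries, against 113, 115 and 118 FPKM in the shNC libraries (log2 fold change -0.12, SE 0.026, adjusted p = 0.0162). MCM6 had 53.2, 53.1 and 52.5 FPKM in the shMYT1 libraries, against 55.7, 56.7 and 58.0 FPKM in the shNC libraries (log2 fold change -0.10, SE 0.026, adjusted p = 0.0329), again without overlap between the groups. Calls of both were lost when libraries were left out, that of MCM3 without shMYT1 replicate 1, or shNC replicate 2 (adjusted p 0.0617 to 0.0641) and that of MCM6 without any 1 of the 6 libraries (adjusted p 0.0530 to 0.1002). Among the other ring subunits MCM7 averaged 150 FPKM in shMYT1 cells and 156 FPKM in shNC cells, a fold change of -0.055 (95% interval -0.12 to 0.014, adjusted p = 0.219), and its groups did not overlap. MCM5 averaged 27.5 FPKM in shMYT1 cells and 27.8 FPKM in shNC cells, a fold change of -0.013 (95% interval -0.089 to 0.063, adjusted p = 0.804), and its groups overlapped. MCM2 shares exon bases with 2 genes on the opposite strand and MCM7 with 1, so some of their fragments cannot be assigned with certainty. Between 5375 and 7667 fragments lay behind each MCM2 value and 3488 to 4387 behind each MCM5 value.

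CDT1, the loading factor that brings the MCM ring to the origin (ENSG00000167513, hg38 chromosome 16, 88803213 to 88809258, plus strand), was measured at 26.2, 25.5 and 27.6 FPKM in the shMYT1 libraries, against 31.2, 28.99 and 32.3 FPKM in the shNC libraries. Its groups did not overlap (-14.3%, log2 fold change -0.21, SE 0.049, adjusted p = 0.0215), and its call was lost without shMYT1 replicate 1 or 2, or shNC replicate 1 or 3 (adjusted p 0.0505 to 0.0691). CDC6, the ATPase that works with CDT1, averaged 22.1 ± 0.992 FPKM in shMYT1 cells and 22.6 ± 0.241 FPKM in shNC cells (SD, n = 3 each), with overlapping groups and a fold change of -0.027 (95% interval -0.12 to 0.062, adjusted p = 0.642). Of the origin recognition complex subunits, ORC2 had 6.85, 6.61 and 6.72 FPKM in the shMYT1 libraries, against 7.45, 7.22 and 7.44 FPKM in the shNC libraries and narrowly missed the threshold (adjusted p = 0.0519). ORC1 showed a fold change of -0.11 (95% interval -0.21 to -0.006, adjusted p = 0.117), also without overlap between groups. Both ORC1 and ORC2 passed on rescaling to the same FPKM total. ORC6 averaged 22.4 FPKM in shMYT1 cells and 22.5 FPKM in shNC cells and its groups overlapped.

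Origin firing genes were also all negative, with 5 of 8 lower and 0 higher, against 12.3% and 11.9% of all genes. With 1 library left out 1 to 3 were lower, against 7.17% to 10.3% of all genes. MCM10, which helps to activate the helicase and recruits polymerase alpha (ENSG00000065328, hg38 chromosome 10, 13161554 to 13211104, plus strand), had 16.2, 15.3 and 15.0 FPKM in the shMYT1 libraries, against 19.2, 18.2 and 18.4 FPKM in the shNC libraries. That is -16.8% in the means (log2 fold change -0.25, SE 0.040, adjusted p = 0.00584, limma), with no overlap and with neighbours at -0.015. CDC7, the kinase that phosphorylates the MCM ring, was measured at 27.8, 28.9 and 26.1 FPKM in the shMYT1 libraries, against 32.9, 32.7 and 30.4 FPKM in the shNC libraries (log2 fold change -0.21, SE 0.049, adjusted p = 0.0249). Its activating subunit DBF4 averaged 13.4 FPKM in shMYT1 cells and 13.8 FPKM in shNC cells and its groups overlapped, at a fold change of -0.036 (95% interval -0.17 to 0.094, adjusted p = 0.677), which leaves the pair with 1 called and 1 uncalled gene. The difference between the 2 fold changes was not tested.

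The GINS complex joins CDC45 and the MCM ring in the moving helicase. GINS1 stood at 19.4, 17.9 and 20.01 FPKM in the shMYT1 libraries, against 21.1, 22.9 and 22.5 FPKM in the shNC libraries (log2 fold change -0.20, SE 0.050, adjusted p = 0.0288), and GINS2 at 19.2, 18.4 and 19.3 FPKM in the shMYT1 libraries, against 20.7, 21.1 and 22.7 FPKM in the shNC libraries (log2 fold change -0.17, SE 0.042, adjusted p = 0.0289). GINS4 had 9.79, 9.10 and 9.90 FPKM in the shMYT1 libraries, against 11.0, 10.8 and 10.8 FPKM in the shNC libraries (log2 fold change -0.17, SE 0.039, adjusted p = 0.0252). All 3 had groups apart, but GINS4 lies on chromosome 8 beside neighbours at -0.22, and its fold change was 0.040 (adjusted p = 0.572) with their running median subtracted, a change of sign. GINS3, the least abundant of the 51, overlapped at 6.28, 5.77 and 5.51 FPKM in the shMYT1 libraries, against 5.72, 6.33 and 6.53 FPKM in the shNC libraries. CDC45 itself averaged 27.4 ± 0.369 FPKM in shMYT1 cells and 27.7 ± 0.783 FPKM in shNC cells (SD, n = 3 each), a fold change of -0.016 (95% interval -0.089 to 0.056, adjusted p = 0.737). Leaving out libraries ended the calls of CDC7 without shMYT1 replicate 1 or 3, or shNC replicate 1 or 2 (adjusted p 0.0624 to 0.0853), of GINS1 without shMYT1 replicate 1 or 2, or shNC replicate 2 or 3 (adjusted p 0.0617 to 0.0959), of GINS2 without shMYT1 replicate 1, 2 or 3, or shNC replicate 2 (adjusted p 0.0597 to 0.0801) and of GINS4 without shMYT1 replicate 1 or 2, or shNC replicate 1, 2 or 3 (adjusted p 0.0523 to 0.0803). GINS4 shares exon bases with 2 genes on the opposite strand.

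**Figure D3:**
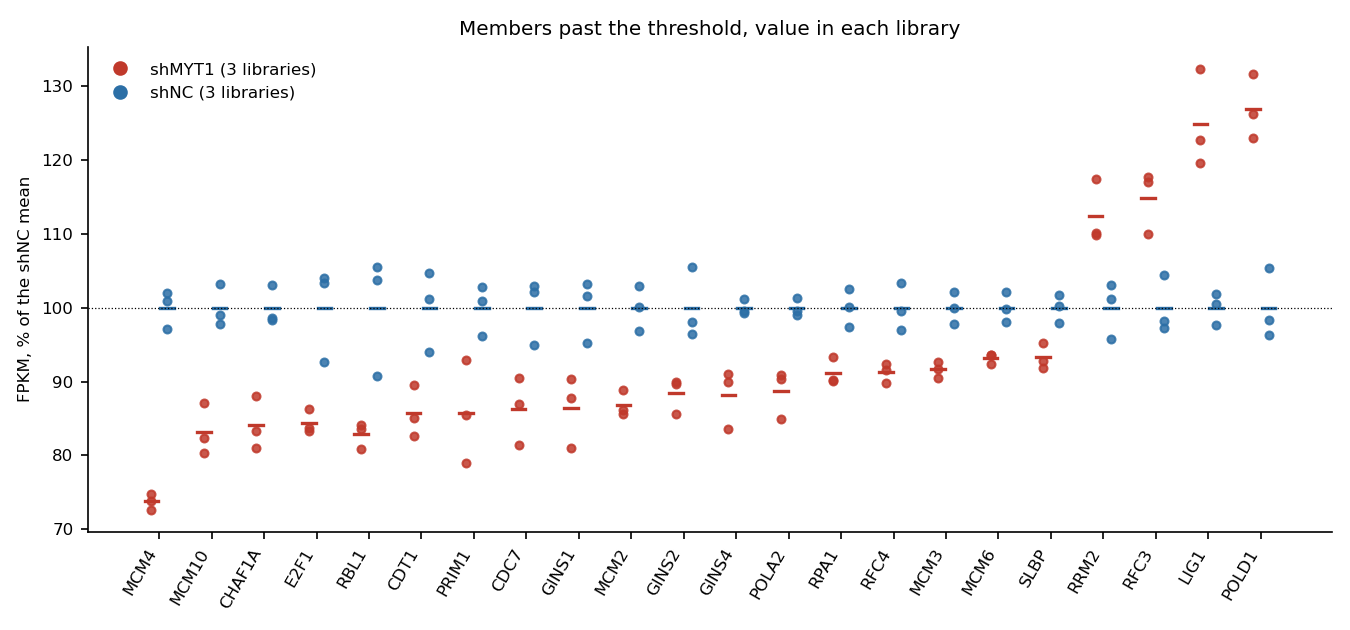
FPKM in each library as a percentage of the shNC mean for the 22 genes past the threshold, ordered by log2 fold change. Points are libraries (3 shMYT1, left and red, and 3 shNC, right and blue) and short bars are group means. In none of the 22 do the groups overlap, against 42.3% of all genes tested without overlap. The 22 were chosen by adjusted p on these same values, so their separation is no further support. MCM4 stands apart on the low side.

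Of the 9 polymerase genes 2 were lower and 1 higher (22.2% and 11.1%), against 12.3% and 11.9% of all genes. In the fit of protein-coding genes only, 18.5% of genes were lower and 17.6% higher. The lower count was 0 without shMYT1 replicate 1 or any shNC library, and 1 without shMYT1 replicate 3. Of all genes 7.17% to 10.3% were lower in those fits. Polymerase alpha-primase makes the primers, and its accessory subunit gene POLA2 was measured at 12.7, 11.9 and 12.8 FPKM in the shMYT1 libraries, against 13.96, 13.9 and 14.2 FPKM in the shNC libraries (log2 fold change -0.16, SE 0.036, adjusted p = 0.0204). PRIM1, the primase catalytic subunit, had 21.6, 23.4 and 19.9 FPKM in the shMYT1 libraries, against 25.9, 25.4 and 24.3 FPKM in the shNC libraries (log2 fold change -0.21, SE 0.059, adjusted p = 0.0412). In both genes the groups were apart, with the PRIM1 libraries of the shMYT1 group widely spread. The catalytic subunit POLA1 averaged 11.7 FPKM in shMYT1 cells and 11.2 FPKM in shNC cells, a fold change of 0.060 (95% interval -0.032 to 0.15, adjusted p = 0.307), and the large primase subunit PRIM2 averaged 6.55 FPKM in shMYT1 cells and 6.78 FPKM in shNC cells, a fold change of -0.046 (95% interval -0.21 to 0.12, adjusted p = 0.677). The POLA2 call was lost without shMYT1 replicate 1, or shNC replicate 1, 2 or 3 (adjusted p 0.05002 to 0.0608) and the PRIM1 call without shMYT1 replicate 1 or 3, or shNC replicate 1, 2 or 3 (adjusted p 0.0545 to 0.118). Both share exon bases with neighbouring genes on their own strand.

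Polymerase delta copies the lagging strand. Its catalytic subunit POLD1 (ENSG00000062822, hg38 chromosome 19, 50384204 to 50418016, plus strand) was measured at 18.3, 17.9 and 19.1 FPKM in the shMYT1 libraries, against 13.98, 14.3 and 15.3 FPKM in the shNC libraries. Each shMYT1 library was above each shNC library (26.9% in the means, log2 fold change 0.33, SE 0.044, adjusted p = 0.00319). Neighbours on chromosome 19 stood at 0.25, and with their running median subtracted POLD1 was at 0.058 (adjusted p = 0.239). POLD2, the second subunit, lies on chromosome 7 among neighbours at 0.012 and had 49.1, 47.6 and 48.4 FPKM in the shMYT1 libraries, against 43.7, 41.9 and 46.6 FPKM in the shNC libraries. Its groups were also apart, at a fold change of 0.13 (95% interval 0.035 to 0.23, adjusted p = 0.0590), and it passed among genes of at least 5 FPKM, among protein-coding genes only, on recovered fragments and without shNC replicate 3. POLD3 pointed the other way, at -0.11 (95% interval -0.20 to -0.015, adjusted p = 0.0927). For the leading-strand polymerase epsilon, the catalytic subunit POLE showed 0.076 (95% interval -0.001 to 0.15, adjusted p = 0.142) and POLE2 showed -0.087 (95% interval -0.21 to 0.040, adjusted p = 0.287).

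The clamp, clamp loader and single-strand binding genes also had 2 of 9 lower and 1 higher, beside the same shares of all genes. The lower count was 0 or 1 with any 1 library left out, against 7.17% to 10.3% of all genes. PCNA, the sliding clamp and the most abundant of the 51, averaged 175 ± 5.34 FPKM in shMYT1 cells and 179 ± 2.83 FPKM in shNC cells (SD, n = 3 each), with overlapping groups and a fold change of -0.032 (95% interval -0.10 to 0.039, adjusted p = 0.485). RFC3, a clamp loader subunit on chromosome 13, had 27.4, 27.5 and 25.7 FPKM in the shMYT1 libraries, against 24.4, 23.0 and 22.7 FPKM in the shNC libraries (log2 fold change 0.19, SE 0.041, adjusted p = 0.0173). Its neighbours stood at 0.20, and with their running median subtracted its value was -0.007 (adjusted p = 0.911), on the other side of 0. RFC4 was lower, at 23.7, 24.1 and 24.4 FPKM in the shMYT1 libraries, against 25.6, 27.3 and 26.2 FPKM in the shNC libraries (log2 fold change -0.13, SE 0.032, adjusted p = 0.0326), beside neighbours near 0. The fold changes of RFC1, RFC2 and RFC5 were -0.075, -0.018 and -0.10, and none of these 3 passed. RPA1, the large subunit of the protein that covers single-stranded DNA, stood at 21.4, 22.2 and 21.4 FPKM in the shMYT1 libraries, against 23.8, 23.1 and 24.3 FPKM in the shNC libraries (log2 fold change -0.13, SE 0.032, adjusted p = 0.0295), with neighbours at -0.078. RPA2 and RPA3 had fold changes of -0.052 and -0.074 and overlapping groups. RFC3 lost its call without shMYT1 replicate 1 or 2, or shNC replicate 2 (adjusted p 0.0537 to 0.0651), RFC4 without shMYT1 replicate 1, 2 or 3, or shNC replicate 2 or 3 (adjusted p 0.0600 to 0.107) and RPA1 without shMYT1 replicate 1 or 3, or shNC replicate 1 or 3 (adjusted p 0.0643 to 0.0976).

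Flap removal and ligation join the lagging strand. LIG1, the replicative DNA ligase on chromosome 19 (ENSG00000105486, hg38 chromosome 19, 48115445 to 48170603, minus strand), was measured at 7.47, 7.28 and 8.05 FPKM in the shMYT1 libraries, against 5.94, 6.12 and 6.20 FPKM in the shNC libraries. The groups were apart (24.9% in the means, log2 fold change 0.28, SE 0.045, adjusted p = 0.00619), beside neighbours at 0.31. With those subtracted LIG1 was at -0.053 (adjusted p = 0.369), which turns its sign. FEN1, the flap endonuclease, averaged 55.6 FPKM in shMYT1 cells and 58.2 FPKM in shNC cells and had a fold change of -0.064 (95% interval -0.14 to 0.007, adjusted p = 0.171).

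**Figure D4:**
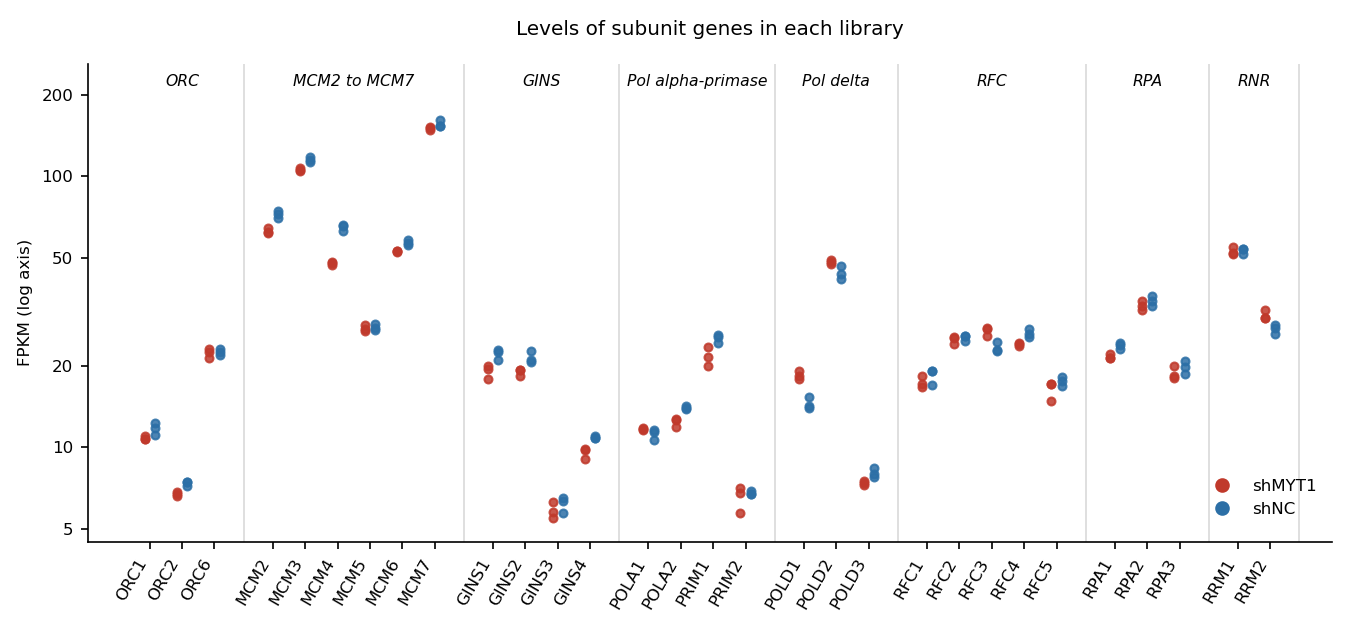
FPKM of the subunit genes of 8 complexes in each library on a log axis (red, left, shMYT1; blue, right, shNC; RNR is ribonucleotide reductase). MCM7 is the most and MCM5 the least abundant ring subunit in both groups, and the MCM4 points of the groups are the farthest apart.

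Of the 4 genes of deoxynucleotide synthesis 0 were lower and 1 was higher, against 12.3% and 11.9% of all genes. RRM2, the S phase subunit of ribonucleotide reductase (ENSG00000171848, hg38 chromosome 2, 10120698 to 10131419, plus strand), was measured at 30.1, 32.1 and 30.03 FPKM in the shMYT1 libraries, against 27.6, 28.2 and 26.1 FPKM in the shNC libraries. Its groups did not overlap (12.5% in the means, log2 fold change 0.16, SE 0.041, adjusted p = 0.0296), and its neighbours stood at 0.007. RRM2 was the 1 of the 4 higher genes whose neighbours lay within 0.1 of 0, yet its call was lost without any 1 of the 6 libraries (adjusted p 0.0509 to 0.0736) and on rescaling to a common FPKM total. The large subunit RRM1 averaged 52.8 ± 1.70 FPKM in shMYT1 cells and 53.2 ± 1.23 FPKM in shNC cells (SD, n = 3 each), a fold change of -0.009 (95% interval -0.088 to 0.070, adjusted p = 0.871). Thymidylate synthase, TYMS, averaged 14.7 FPKM in shMYT1 cells and 14.8 FPKM in shNC cells, a fold change of -0.010 (95% interval -0.098 to 0.077, adjusted p = 0.866), and it shares many exon bases with genes on the opposite strand. The thymidine kinase TK1 averaged 56.5 ± 2.17 FPKM in shMYT1 cells and 61.7 ± 5.19 FPKM in shNC cells (SD, n = 3 each), a fold change of -0.12 (95% interval -0.27 to 0.024, adjusted p = 0.201). RRM2 and TYMS have pseudogenes named after them in GENCODE 29, as do 8 more of the 51, so fragments shared with such copies may be misplaced.

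Of the 4 genes of the fork checkpoint, chromatin assembly and histone mRNA, CHAF1A and SLBP were lower and none was higher. Of all genes 12.3% were lower and 11.9% higher. CHAF1A, the large subunit of the CAF-1 histone chaperone (ENSG00000167670, hg38 chromosome 19, 4402662 to 4445018, plus strand), had 30.5, 29.7 and 32.3 FPKM in the shMYT1 libraries, against 36.1, 36.0 and 37.8 FPKM in the shNC libraries (-15.9%, log2 fold change -0.24, SE 0.039, adjusted p = 0.00607). The groups stood apart, and its neighbours on the short arm of chromosome 19 were at -0.12. With their running median subtracted CHAF1A remained lower, at -0.13 (adjusted p = 0.0301). Its partner CHAF1B was measured at 8.56, 7.92 and 9.09 FPKM in the shMYT1 libraries, against 9.69, 9.77 and 9.55 FPKM in the shNC libraries, also apart, and narrowly missed the threshold (log2 fold change -0.17, adjusted p = 0.0522). CHAF1B passed among genes of at least 5 FPKM, among protein-coding genes only and on recovered fragments. It also passed on rescaling to the same FPKM total and without shMYT1 replicate 3. SLBP, which binds the stem-loop of histone mRNAs, had 44.5, 44.1 and 45.8 FPKM in the shMYT1 libraries, against 48.2, 47.0 and 48.9 FPKM in the shNC libraries (log2 fold change -0.098, SE 0.028, adjusted p = 0.0456). The SLBP call was lost without any 1 of the 6 libraries (adjusted p 0.0592 to 0.132). CLSPN, the checkpoint mediator claspin, averaged 10.9 FPKM in shMYT1 cells and 11.2 FPKM in shNC cells with overlapping groups and a fold change of -0.041 (95% interval -0.17 to 0.084, adjusted p = 0.619).

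Other genes of the same process were read in the same fit. Of 37 further replication genes, 12 were lower and 1 higher (32.4% and 2.70%, median log2 fold change -0.071), against the 12.3% and 11.9% of all genes. The clamp loader gene DSCC1 on chromosome 8 averaged 13.3 FPKM in shMYT1 cells and 16.6 FPKM in shNC cells (log2 fold change -0.30, adjusted p = 0.00135, neighbours -0.24), and its call was lost with that median subtracted, at -0.057 (adjusted p = 0.223). TOPBP1, a scaffold of origin firing, averaged 20.01 ± 0.811 FPKM in shMYT1 cells and 24.5 ± 0.742 FPKM in shNC cells (SD, n = 3 each; log2 fold change -0.28, adjusted p = 0.00372). HELLS, a chromatin remodeller, averaged 7.44 FPKM in shMYT1 cells and 9.24 FPKM in shNC cells (log2 fold change -0.28, adjusted p = 0.00844), and ATAD5, which unloads PCNA, 4.18 FPKM in shMYT1 cells and 5.11 FPKM in shNC cells (log2 fold change -0.24, adjusted p = 0.0123). Of 23 S phase expressed genes from a published cell cycle list without the 51, 10 were lower and 1 higher (43.5% and 4.35%, median -0.152). Without shNC replicate 2, 6 of the 23 were lower, against 7.17% of all genes. Several of the 23, such as HELLS and DSCC1, stand in both lists. ATAD2 averaged 17.2 FPKM in shMYT1 cells and 21.0 FPKM in shNC cells beside neighbours at -0.25, EXO1 23.6 FPKM in shMYT1 cells and 27.6 FPKM in shNC cells and BRIP1 8.25 FPKM in shMYT1 cells and 9.66 FPKM in shNC cells. E2F8, an atypical repressor E2F, was the higher one, at 4.90 FPKM in shMYT1 cells and 4.16 FPKM in shNC cells. With the neighbours' running median subtracted ATAD2 lost its call, at -0.026 (adjusted p = 0.713). Left-out libraries ended the call of BRIP1 without shMYT1 replicate 2 or 3, or shNC replicate 1 or 2 (adjusted p 0.0695 to 0.0957) and of E2F8 without any 1 of the 6 libraries (adjusted p 0.0522 to 0.118).

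Of 35 tested genes from a list of 36 other nucleotide synthesis genes, 7 were lower and 2 higher (median -0.038), against 12.3% and 11.9% of all genes. In the fit of protein-coding genes only, 9 were lower and 2 higher, against 18.5% and 17.6% of genes. The lower count was 4 without any 1 shMYT1 library, against 7.87% to 9.74% of all genes, and 3 without shNC replicate 2, against 7.17%. It was 11 with the regional running median removed, and also on rescaling to the same FPKM total. Of all genes 10.05% were lower in the first of these fits and 16.1% in the second. RRM2B, the p53-induced subunit of ribonucleotide reductase on chromosome 8, averaged 3.50 ± 0.0902 FPKM in shMYT1 cells and 5.54 ± 0.433 FPKM in shNC cells (SD, n = 3 each; log2 fold change -0.54, adjusted p = 0.00138) beside neighbours at -0.25, and remained lower with those subtracted, at -0.30 (adjusted p = 0.0113). The guanine nucleotide enzyme IMPDH1 was higher, at 33.9 FPKM in shMYT1 cells and 27.8 FPKM in shNC cells (log2 fold change 0.28, adjusted p = 0.00479). SHMT1, a one-carbon enzyme, averaged 3.15 FPKM in shMYT1 cells and 3.81 FPKM in shNC cells, and its call was lost without shMYT1 replicate 1, 2 or 3, or shNC replicate 1 or 2 (adjusted p 0.0539 to 0.0854) and with the neighbours' running median subtracted, at -0.10 (adjusted p = 0.247).

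Of 20 tested genes from a list of 21 other E2F, pocket and MuvB regulators, 3 were lower and 3 higher (15.0% each, median -0.013), near the 12.3% and 11.9% of all genes. The lower count was 0 without shMYT1 replicate 1 or shNC replicate 1, and 1 without shMYT1 replicate 3 or shNC replicate 2. Of all genes 7.17% to 8.36% were lower in those fits. CCNE1, the cyclin that drives entry into S phase, was measured at 5.50, 5.59 and 5.65 FPKM in the shMYT1 libraries, against 3.38, 3.12 and 3.42 FPKM in the shNC libraries (log2 fold change 0.61, adjusted p = 0.000380), with groups far apart. RB1, the retinoblastoma pocket protein on chromosome 13, averaged 10.0 ± 0.435 FPKM in shMYT1 cells and 7.67 ± 0.139 FPKM in shNC cells (SD, n = 3 each; log2 fold change 0.35, adjusted p = 0.00183) beside neighbours at 0.20, and stood at 0.15 (adjusted p = 0.0177) with their running median subtracted. LIN9, a MuvB subunit, averaged 6.04 FPKM in shMYT1 cells and 7.46 FPKM in shNC cells and the repressor E2F6 12.7 FPKM in shMYT1 cells and 14.8 FPKM in shNC cells. Calls were lost for LIN9 without shMYT1 replicate 1, or shNC replicate 1 (adjusted p 0.0571 to 0.0580) and for E2F6 without shMYT1 replicate 1 or 3, or shNC replicate 1 or 2 (adjusted p 0.0542 to 0.0659). Of 54 genes expressed in G2 and M phase, 12 were lower and 0 higher (22.2% lower, median -0.091), against 12.3% and 11.9% of all genes. On rescaling to the same FPKM total 22 were lower, against 16.1% of all genes. Without shMYT1 replicate 1 the count was 8, against 7.87% of all genes. Fold changes were -0.37 for KIF20B, -0.36 for CDCA2, -0.32 for ANLN and -0.25 for BIRC5. CDCA2 lies on chromosome 8 beside neighbours at -0.21, and stood at -0.15 (adjusted p = 0.0377) with their running median subtracted. Whether these shifts and those of the 51 genes share a source was not tested.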

How the data were processed

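The authors deposited gene-level FPKM for all 6 libraries in 1 table. Tools named in the submitters' processing notes are featureCounts 1.5.0-p3 and HISAT2 2.0.5, with build hg38. The sources used here give no annotation, strand setting or filter. Symbols, positions and exon lengths came from GENCODE 29, which holds 99.59% of the IDs. FPKM times exon length came out as whole fragments, to within 0.01, for 95.4% of these (48 of the 51 genes), which gave fragment numbers. Median ratios between libraries were already equal in the deposited values, so nothing was rescaled. Where the mean reached 1 FPKM, log2(FPKM + 1) was tested two-sided in limma 3.58.1 under R 4.3.3. A trend of variance with level was allowed, and p-values were adjusted by Benjamini-Hochberg over every tested gene. The code was tested on simulated data. This scale understates changes of low genes.

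The members and lists were chosen with earlier results of these data known. All 51 genes are reported, with values per library for those past the threshold and for ORC2, GINS3, POLD2 and CHAF1B, which were chosen after their values were seen. Of each further list, up to 4 called genes with the largest change are named. A result for 1 such gene is not reported here. Of the 51 genes 24 share exon bases with another gene, 19 of them on the opposite strand. Replicates differed by more than counting noise (chi-square per gene 1.91 to 3.30), and none were merged. Deviations of same-numbered libraries correlated best with each other, yet only at 0.013 to 0.043, and the main fit did not pair them.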

Additional observations from a re-analysis of the deposited data

How the results depend on the processing

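Counts of the 51 genes were 4 higher and 18 lower, against 11.9% and 12.3% of all genes. With the regional running median removed 1 was higher, against 10.3% of all genes. With no filter on low values 10 were lower, against 4.05% of all IDs. With no variance trend 3 were higher and 12 lower, against 10.9% and 11.4% of all genes. There MCM3, MCM6, PRIM1, RFC4, RPA1, RRM2 and SLBP lost their calls. SLBP also lost its call with voom on recovered fragments. Leaving out 1 library in turn gave 2 to 4 higher and 4 to 11 lower genes, 2038 to 3048 genes called in all, of which 1025 to 1589 were higher and 1013 to 1459 lower, against 3420, 1683 and 1737 as reported. Genes called lower in the 5 further lists numbered 26 to 42 in those fits, against 40 as reported. The median of the 51 genes was -0.109 on rescaling to the same FPKM total, -0.088 with quantile normalization, -0.089 with voom on recovered fragments and -0.097 to -0.075 with 1 library left out. Signs turned with the regional running median removed for GINS4 (0.04), RFC3 (-0.007) and LIG1 (-0.053). The cause of these changes was not tested; fits without a library have fewer samples. Of 22 called genes, 4 kept their call in every setting run, MCM4 without a voom value. On rescaling to the same FPKM total 36.5% of all called genes were higher, against 49.2% as reported, and 23 of the 51 genes were lower and 3 higher. In that setting 16.1% of all genes tested were lower and 9.26% higher, and the median of all genes was -0.035.

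The libraries share only a replicate number. Same-numbered libraries had correlations of deviations of 0.033, 0.013 and 0.043, although each library correlated best with its own number. With the replicate block 4 genes were higher and 16 lower, and 3381 of all genes were called. At least 475 fragments lay behind each value of the 48 genes with a fragment number, and 3 libraries a group limit the precision.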

Other observations

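The MCM4 share of the summed FPKM of the 6 genes MCM2 to MCM7 was 10.8%, 10.8% and 10.4% in shMYT1 libraries, against 13.0%, 13.4% and 13.0% in shNC libraries. MCM7 made up 33.3 to 33.8% in shMYT1 and 31.4 to 31.9% in shNC libraries, and MCM5 6.01 to 6.25% in shMYT1 and 5.59 to 5.66% in shNC libraries. These are shares of a sum that was itself lower in shMYT1 cells. MCM7 averaged 150 FPKM in shMYT1 cells and 156 FPKM in shNC cells, and MCM5 averaged 27.5 FPKM in shMYT1 cells and 27.8 FPKM in shNC cells. The 6 genes together stood at 447 ± 4.195 FPKM in shMYT1 and 493 ± 11.5 FPKM in shNC cells (SD, n = 3 each).

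Summed levels of other complexes differed in direction. The GINS genes together were at 53.6 ± 2.04 FPKM in shMYT1 and 60.7 ± 2.03 FPKM in shNC cells, and the CAF-1 pair at 39.4 ± 1.90 FPKM in shMYT1 and 46.3 ± 0.878 FPKM in shNC cells. Also lower without overlap were the sums of ORC1, ORC2 and ORC6 (-4.1%), polymerase alpha-primase (-8.5%) and CDC7 with DBF4 (-10.4%). The ORC sums were barely apart, with a highest value of 40.7 FPKM in shMYT1 and a lowest of 40.9 FPKM in shNC libraries. Of single genes tested, 42.3% did not overlap. Polymerase delta alone was higher without overlap, its 3 genes at 74.2 ± 1.13 FPKM in shMYT1 and 66.6 ± 2.80 FPKM in shNC cells. Of these POLD1 had a fold change of 0.058 with the running median of its neighbours subtracted, while POLD2 had neighbours at 0.012. The means differed by 3.91 FPKM for POLD1, 4.31 FPKM for POLD2 and -0.655 FPKM for POLD3. Among the lower sums, that of GINS holds GINS4 (neighbours -0.22) and that of CAF-1 holds CHAF1A (neighbours -0.12). The sum of MCM2 to MCM7 holds MCM4 (neighbours -0.27). For polymerase epsilon, RFC, RPA and ribonucleotide reductase the sums of the groups overlapped (n = 3 each, no test).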
